A study of Drosophila melanogaster with 23 samples.

Results

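The stretch of chromosome 2L between 3590000 and 3690000 on dm3, named for the odd-skipped genes odd, sob and drm, was examined for open chromatin along the head-to-tail axis of the Drosophila melanogaster embryo. Peaks from 22 ATAC-seq peak lists were merged wherever they shared at least 1 bp, which gave 25311 regions in the genome. A region belonged to the window when its centre lay inside it, and 24 regions did. Among the merged regions this choice used position alone, although a region exists only where at least 1 list called a peak. The window itself was chosen with earlier results of these data known. ATAC-seq cuts and tags DNA with a transposase where it is not wrapped in nucleosomes, so a peak marks accessible chromatin such as an enhancer or a promoter.

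The genes odd, sob and drm encode related zinc finger transcription factors. odd is a pair-rule gene: its product acts as a repressor, is made in stripes in the blastoderm, and helps to set the borders of other segmentation genes. drm and bowl, a further relative, act in patterning of the gut and legs, where Drm relieves the block that the protein Lines puts on Bowl. Stripes of this kind are usually read from separate enhancers spread around a gene, each open to the transcription factors of its own part of the axis.

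The assayed nuclei came from stage-5 embryos of strains in a wild-type background, collected for 20 min at 25 °C, aged for 150 min and frozen at 190 min after collection began. All strains carried a UNC84-3xFLAG nuclear tag, and the enhancer that drove it set the band of nuclei pulled down with anti-FLAG beads. In order from the head, the 7 bands were D1 (the anterior hunchback band), D3 (even-skipped stripe 1), D2 (even-skipped stripe 2), D4 (the central band of Dichaete), D5 (the central band of Kruppel), D6 (stripe 5 of even-skipped) and D7 (the posterior band of giant). Each band had 2 libraries, 14 in all. All nuclei of whole embryos of the D1, D4, D5 and D7 strains made 8 further libraries, 2 per construct. The 2 libraries of a band were labelled as separate transgenic lines, A and B, except that both D3 libraries carried the label of line A. A band is thus known only through its driver, and p-values below measure the spread between libraries of such lines. The tests treat each library as a unit, although the 2 libraries of a band share its driver. They do not measure the spread between bands, and a comparison of groups of bands rests on fewer bands than libraries. A sample of genomic DNA, the reference against which peaks were called, was not analysed here.

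The lists held 16830 to 22169 peaks covering 10.3 to 14.5 Mb, and the reads behind them are unknown because the lists hold no counts. The list total is therefore the only measure of how much was called. It was 10.3 to 14.3 Mb in the 10 libraries of D1, D2, D3, D6 and D7 and 13.0 to 14.5 Mb in the 4 of D4 and D5. Each peak had a single summit in 8 lists, those of the first tagged and the first whole-embryo library of D1, D4, D5 and D7. In the other 14 lists a peak with several summits was recorded under a lettered name at a late summit, so its fold and summit could not be set beside those of the first 8.

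The label of the window was checked against the annotation at hand, which was of another build (Release 6), so only gene names and their order were used. From left to right that order was drm, sob, the noncoding RNA gene lncRNA:CR43823, odd, lncRNA:CR44310, Ugt36A1, CG15418, for, mir-4972, Drgx, 4 Sfp24B genes and bowl. Read as positions on Release 6, the numbers that bound the window take in 12 genes, 9 of them protein-coding, from lncRNA:CR43823 to the Sfp24B genes. They take in odd but neither sob nor drm, which lie to the left, nor bowl, to the right. Whether this holds on dm3 was not tested. Regions are therefore described by position and no region is assigned to odd, sob or drm. Among the other neighbours, for encodes a cGMP-dependent protein kinase, Ugt36A1 a UDP-glycosyltransferase and Drgx a homeobox protein.

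Of the 24 regions, 13 (54.2%) were found in all 22 lists, against 42.8% of all 25311 regions. 2 regions (8.33%) were found in a single list, against 10.2% of all regions. The median width was 604 bp, against 480 bp over all regions, and the 24 together spanned 22790 bp. The number of regions was not unusual: over 1206 windows of 100 kb the median was 19, and 62.3% of windows held fewer than 24. The adjacent 100 kb to the left, on the side of sob and drm in the annotation's order, held 20 regions with 8 in all lists, and the 100 kb to the right held 13 with 7. No region of either flank was as wide as the widest of the window: the widest was 1816 bp on the left and 1761 bp on the right.

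Positions are given below in kb from the centre of the widest region, 2L:3604074-3607517, with minus to the left. The 24 regions fell into 8 groups when split at gaps over 4000 bp. The largest group ran from 2L:3600624 to 3620099, a span of 19.5 kb, and held 12 regions, 7 of them in all lists. A second group at 2L:3655566-3658202, 2.64 kb long, held 4 regions with 3 in all lists. A group of 3 stood at 2L:3628923-3634358, and 5 regions stood alone. The largest group thus held the widest region of the window, and 1 of the regions standing alone lay to its left.

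**Figure D1:**
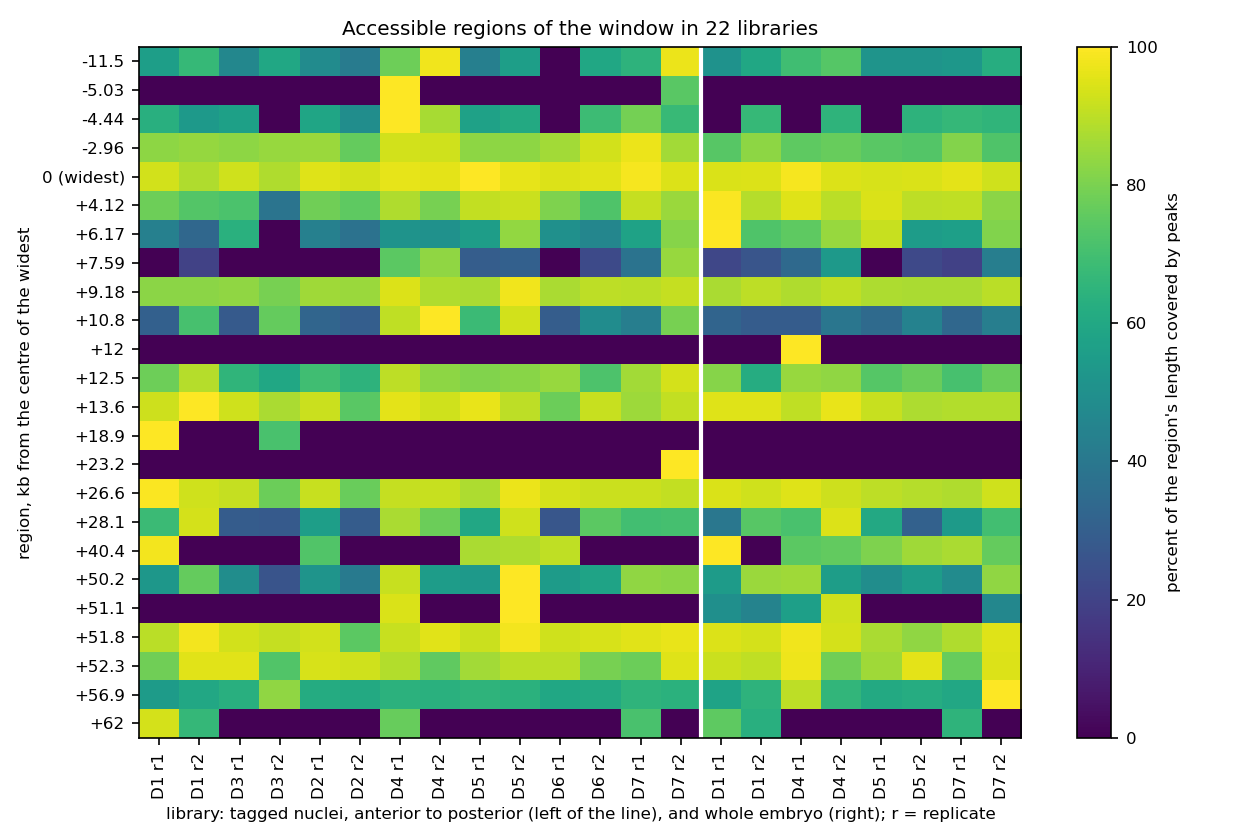
Percent of each region's length under peaks, with 1 row for each of the 24 regions (named by kb from the centre of the widest) and 1 column for each of the 22 libraries, tagged nuclei from head to tail on the left of the white line and whole embryo on the right. The 13 regions found in all lists form filled rows, and the region at +7.59 kb is empty in 5 of the 6 libraries of D1, D3 and D2.

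Between 15 and 20 of the 24 regions were found in a library. The tagged libraries of D1 held 19 and 18, those of D3 16 and 15, and those of D2 17 and 16. D4 held 20 and 17, D5 18 and 19, D6 15 and 17, and D7 18 and 19. The whole-embryo libraries held 16 to 19, with a median of 19. The bands overlapped in these counts, and D3 and the first D6 library were at the low end. Both libraries of a band shared from 77.8% (D6) to 94.7% (D5) of the regions found in either, and over all regions that share was 76.6% to 82.7%.

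The length under peaks in the window was 16370 and 16453 bp in D1, 14834 and 13020 bp in D3, and 15606 and 13958 bp in D2. It was 19404 and 17723 bp in D4, 16947 and 18830 bp in D5, 14981 and 16105 bp in D6, and 17563 and 18516 bp in D7. Whole embryos gave 15990 to 17929 bp. Both D3 libraries and the second of D2 were lowest, and D4, D5 and D7 were highest among the bands. The first D6 library (14981 bp) lay below the first of D2 (15606 bp). The 6 anterior libraries (13020 to 16453 bp) thus overlapped the 8 others (14981 to 19404 bp). The order of the list totals matched this only in part. The libraries lowest in window length also had small totals: 10.94 Mb in D2 replicate 2, 10.96 Mb in D3 replicate 2 and 11.59 Mb in D3 replicate 1. D6 was likewise among the lowest in list total (10.3 and 11.3 Mb). D7 (12.6 and 12.0 Mb) lay below all 4 libraries of D4 and D5 in list total but not in window length. As a share of its list's total, the window made up 0.115% to 0.134% in D1, D3 and D2, 0.121% to 0.143% in D4 and D5, and 0.139% to 0.154% in D6 and D7. The anterior and posterior shares did not overlap, and the central ones overlapped both. This was not tested, and how many other windows of the genome separate these bands in the same way was not counted.

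**Figure D2:**
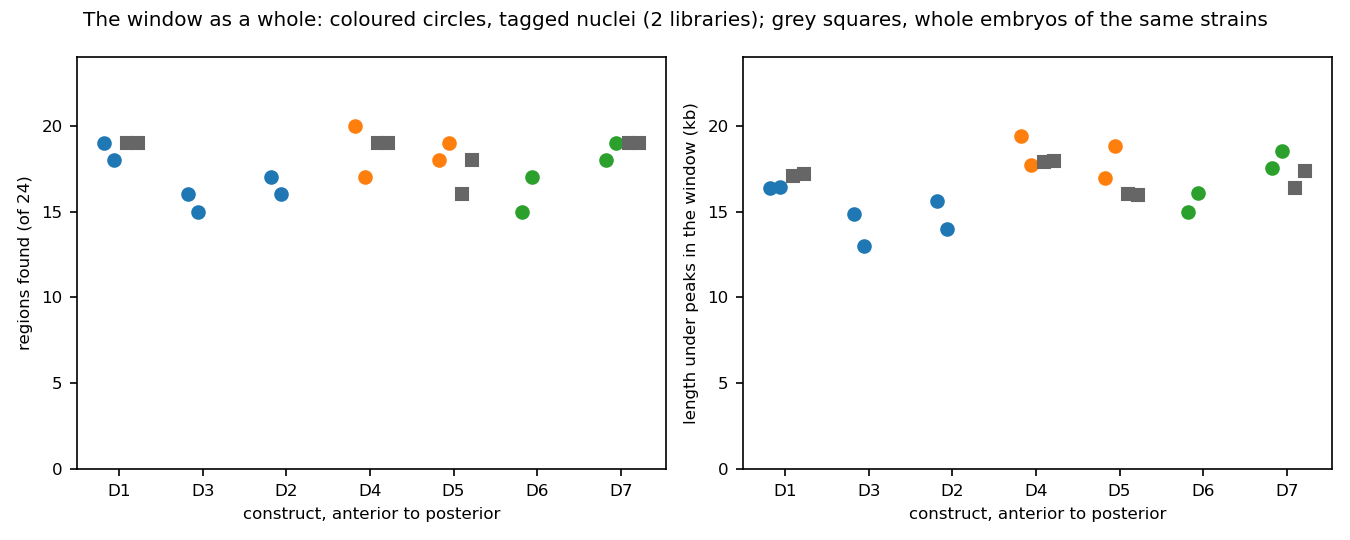
Number of the 24 regions found (left) and length under peaks in the window in kb (right), for each band from head to tail. Coloured circles are the 2 tagged libraries of a band and grey squares the whole embryos of the same strains. D3 and D2 lie at 13.0 to 15.6 kb in length, with the first D6 library (15.0 kb) inside that range, and D4 reaches 19.4 kb.

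Of the 13 regions found everywhere, 6 are described in full, being among the 5 widest or the 5 of highest median fold. The fold is the authors' own value, the enrichment over genomic DNA at the summit. It belongs to its own list, is used only for description and was not tested between lists. The other 7 were 305 to 1350 bp wide with a median fold of 1.90 to 4.65 over all lists. The lowest of these, at +13.6 kb (2L:3618750-3620099), mixes late summits with a fold of 4.97 to 7.40 in the 8 lists with single summits.

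The widest region, 2L:3604074-3607517, spanned 3444 bp, wider than 98.3% of all regions. Its fold was 17.3 to 25.2 and ranked it between 43 and 331 within its list. In the 8 lists with single summits its summit lay at 3606891 to 3606894, within 3 bp. It was a single peak in 21 of 22 lists, and D3 replicate 2 split it into 2. Its covered length was 3215 and 3027 bp in D1, 3198 and 3040 bp in D3, 3277 and 3218 bp in D2, 3311 and 3304 bp in D4, 3435 and 3322 bp in D5, 3259 and 3294 bp in D6, and 3403 and 3261 bp in D7. Whole embryos gave 3192 to 3402 bp, with a median of 3254.5 bp. The anterior libraries were lower, and the first D2 library alone reached into the range of the others.

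The region at +4.12 kb, 2L:3608327-3611495, was the next widest, at 3169 bp. In 19 of the 22 lists it was made of at least 2 peaks. Its strongest peak never had a lettered name, so its fold could be read within every list. That fold was 7.14 and 7.86 in D5 and 10.3 and 11.4 in D4, and 13.9 to 21.4 in the other 10 tagged lists. Whole embryos gave 14.8 to 18.8. Within its own list the peak exceeded 83.6% and 90.3% of peaks in D5, 90.9% and 95.4% in D4, and 97.4% to 99.4% in the other tagged lists. The 4 libraries of D4 and D5 thus lay below all 18 others in fold, a difference noticed in the values and not tested. The share of all regions with such a separation was not counted, so how unusual it is cannot be judged. The summit lay within 3610869 to 3610990 in the lists with single summits.

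The covered length of the whole region, over all its peaks, at +4.12 kb was 2793 and 2518 bp in D4 and 2882 and 2912 bp in D5. It was 2473 and 2319 bp in D1, 2271 and 1224 bp in D3, 2479 and 2379 bp in D2, 2559 and 2296 bp in D6, and 2889 and 2694 bp in D7. Whole embryos gave 2612 to 3153 bp. D3 replicate 2, at 1224 bp, stood far below the rest. All 6 anterior libraries, at most 2479 bp, lay below those of D4, D5 and D7, and D6 overlapped both sides.

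**Figure D3:**
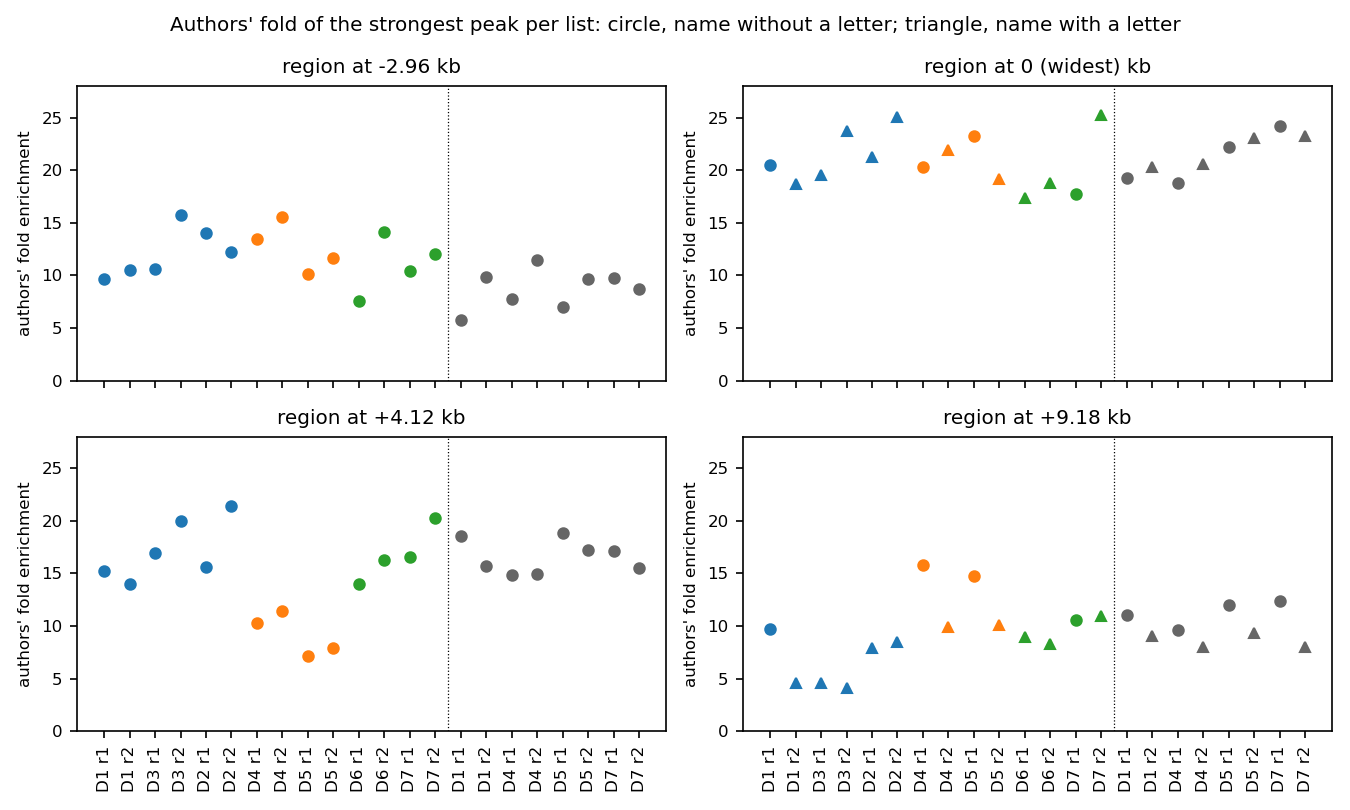
The authors' fold enrichment over genomic DNA of the strongest peak in 4 regions, for each library in order from head to tail, with whole embryo right of the dotted line. Circles mark peaks with a plain name and triangles peaks recorded at a late summit, which are not comparable with circles. At +4.12 kb all marks are circles, and D4 and D5 lie at 7.14 to 11.4 while the other tagged lists lie at 13.9 to 21.4. This was not tested, and the share of all regions with such a separation was not counted.

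The region at -2.96 kb, 2L:3602149-3603514, spanned 1366 bp and was a single peak in all 22 lists. None of its peaks had a lettered name, and its fold was 7.58 to 15.8 in the tagged and 5.75 to 11.5 in the whole-embryo lists, which overlapped. Its summit lay at 3602961 to 3602963 in the lists with single summits. Its covered length was 1041 to 1163 bp in D1, D3 and D2, 1133 to 1272 bp in D4 and D5, 1175 to 1326 bp in D6 and D7, and 990 to 1133 bp in whole embryos. Tagged libraries of every band thus lay at or above most whole-embryo libraries.

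The region at +9.18 kb, 2L:3613969-3615991, spanned 2023 bp, wider than 94.5% of all regions. In the lists with single summits its fold was 9.73 in D1, 15.8 in D4, 14.8 in D5, 10.6 in D7 and 9.59 to 12.4 in whole embryos. In lists with late summits its fold was 4.61 in D1, 4.61 and 4.11 in D3 and 7.86 and 8.46 in D2. It was 9.87 in D4, 10.1 in D5, 8.92 and 8.24 in D6, 10.95 in D7 and 7.99 to 9.30 in whole embryos. In the lists with single summits, D1 was the lowest of the tagged libraries and D4 and D5 were the highest. In the lists with late summits, D1 and D3 were lowest, and D4 and D5 were exceeded by D7. D3 had lists with late summits only. The single summit also moved: it lay at 3614717 in D4 and 3614855 in D1, and at 3615204 to 3615290 in the other 6 lists. This spread of 573 bp was the largest among the regions found in all lists: of those 13, 10 had summits within 100 bp over the lists with single summits, with a median spread of 52 bp over the 13.

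The region at +26.6 kb, 2L:3631321-3633388, spanned 2068 bp, with a fold of 5.90 to 7.96 in the lists with single summits and summits at 3632227 to 3632279. Its covered length ran from 1595 to 2059 bp, lowest in D2 replicate 2 and D3 replicate 2. The region at +51.8 kb, 2L:3657266-3657835, had a fold of 5.95 to 8.53 over all lists. It covered 427 to 561 bp, and its summit lay within 16 bp in the lists with single summits. Neither region separated the bands.

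The study's central question of position was asked first as anterior against the rest: the 6 libraries of D1, D3 and D2 against the 8 of D4 to D7. Presence was tested with Fisher's exact test in the regions that at least 2 of these libraries held and at least 2 lacked. Of the 7 regions of the window so tested, 0 were called at an adjusted p of 0.05 (Benjamini-Hochberg over 9284 regions), against a background of 0 percent over all regions. At an unadjusted p under 0.05 there was 1, against a background of 5.78 percent. No region was therefore shown to be absent from the anterior bands.

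That 1 region stood at +7.59 kb, 2L:3612833-3613941, and ended 27 bp before the region at +9.18 kb. It was found in 1 of 6 anterior libraries and in 7 of 8 others (Fisher's exact test, p = 0.0256, adjusted p = 0.535). Its covered length was 0 and 217 bp in D1 and 0 bp in all 4 libraries of D3 and D2. It was 830 and 927 bp in D4, 326 and 342 bp in D5, 0 and 250 bp in D6, and 423 and 936 bp in D7. Whole embryos had it in 7 of 8 libraries, at 214 to 595 bp. In such pools a region open in few nuclei and one weakly open in many cannot be told apart. It was thus highest in D4 and D7 and nearly missing from the bands in front of D4, and D6 replicate 1 lacked it as well. Its fold was 1.39 to 2.32 wherever it was found.

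The covered length was then compared with an exact permutation test over libraries, not bands, which has 3003 arrangements here. Of the 20 regions of the window tested, 1 was called at an adjusted p of 0.05 over 20211 regions, against a background of 1.53 percent in either direction and 0.797 percent shorter in the anterior libraries. It was the region at +9.18 kb. Its covered length was 1675 and 1670 bp in D1, 1690 and 1612 bp in D3, and 1736 and 1719 bp in D2. It was 1917 and 1783 bp in D4, 1769 and 1977 bp in D5, 1763 and 1819 bp in D6, and 1815 and 1845 bp in D7. Whole embryos gave 1763 to 1826 bp. All 6 anterior libraries lay below all 8 others and below all 8 whole-embryo libraries. Ranges that did not overlap in this direction were found in 0.777 percent of regions.

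The mean at +9.18 kb was 1684 ± 43.4 bp (SD, n = 6) in the anterior libraries and 1836 ± 75.5 bp (SD, n = 8) in the others, a difference of -152 bp (exact permutation p = 0.000666, adjusted p = 0.0436). The call was kept without D6 replicate 1 (exact permutation test, adjusted p = 0.0478) and lost in the other 13 fits that left out a single library, where the adjusted p reached 0.107. The difference over these fits was -163 to -132 bp, and leaving out a library raised the number of regions needed at the smallest p from 135 to at least 230. Divided by each list's total and expressed per 10000000 bp, the difference was -71.7 bp (exact permutation p = 0.375, adjusted p = 0.870). Within the 3 styles in which the lists name their library, which may mark batches, the difference was -143, -154 and -159 bp. In that order these rested on 3 anterior against 4 other libraries, 2 against 1 and 1 against 3. Only the first style had more than 1 library on both sides (exact permutation p = 0.0571).

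At an unadjusted p under 0.05, 7 of the 20 regions were shorter in the anterior libraries and 0 were longer, against a background of 8.23 percent shorter and 4.99 percent longer over all regions. Besides +7.59 and +9.18 kb these were the widest region (a difference of -161 bp, exact permutation p = 0.000999, adjusted p = 0.0518) and those at -2.96, +4.12, +12.5 and +50.2 kb. At +12.5 kb, 2L:3618026-3618616, the anterior libraries covered 351 to 526 bp and the others 425 to 553 bp. At +50.2 kb, 2L:3655566-3656476, they covered 238 to 697 bp and the others 493 to 911 bp. The groups overlapped in all of these 7 but +9.18 kb. In direction alone, 16 of 20 were shorter, beside 61.3% of all regions. When divided by the list total, the regions at +4.12, +7.59 and +50.2 kb kept an unadjusted p under 0.05. In either direction 11.1% of all regions had such a p. Of the 20 regions 15 were shorter, beside 48.1% of all regions. The widest region did not keep a p under 0.05: its scaled difference was -37.7 bp per 10000000 bp (exact permutation p = 0.804).

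**Figure D4:**
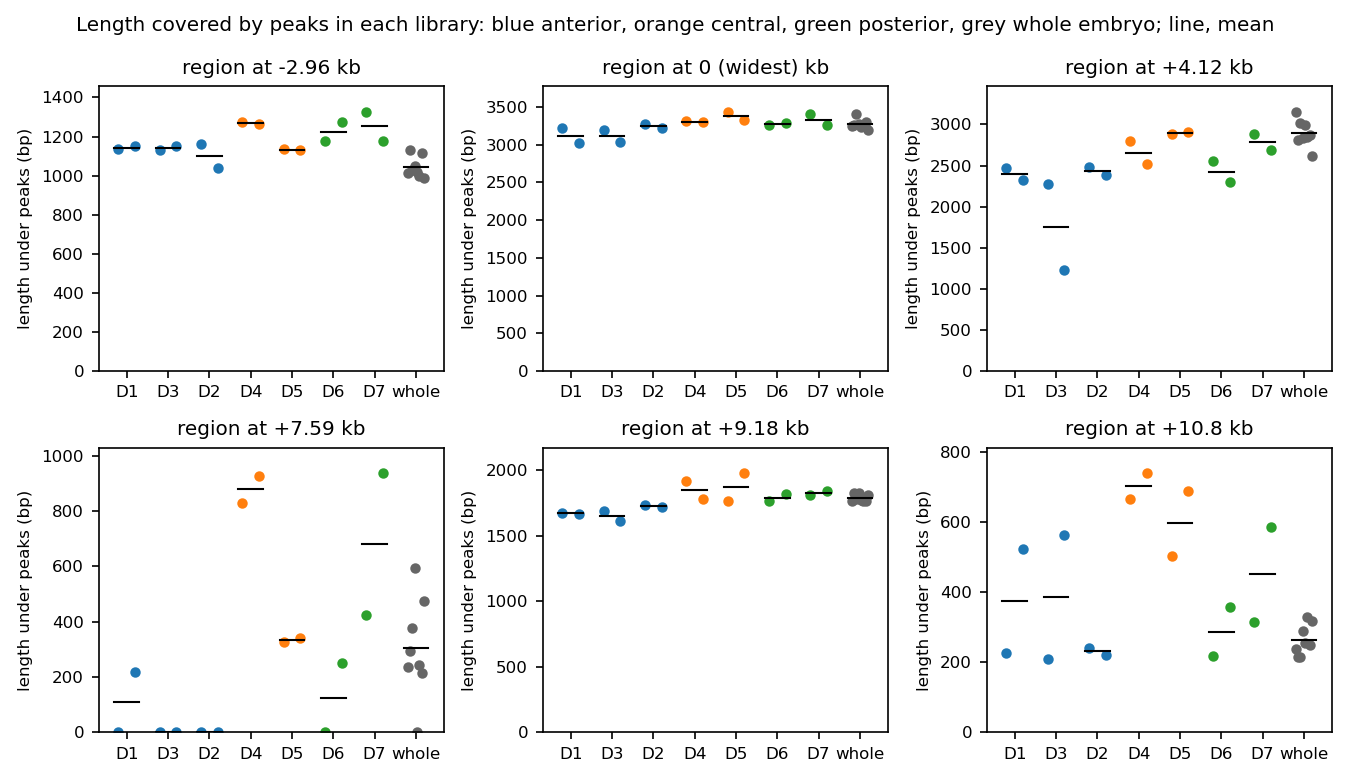
Length under peaks in bp in each library for 6 regions of the largest group, with bands in order from head to tail and whole embryo at the right. Points are libraries (2 per band, 8 for whole embryo), the line is their mean, and blue, orange, green and grey mark anterior, central, posterior and whole embryo. At +9.18 kb all blue points (1612 to 1736 bp) lie below the orange and green points (1763 to 1977 bp).

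The posterior bands D6 and D7 (4 libraries) were then compared with the other 10. By presence, 0 of 7 regions were called, against a background of 0 percent, and 0 had an unadjusted p under 0.05, against 3.76 percent. By covered length, 0 of 20 were called, against 0 percent, and 0 had an unadjusted p under 0.05, against 8.89 percent. With 1001 arrangements the smallest possible p was 0.000999, and 404 regions of the genome would have had to reach it before any could be called, so the design limited this count. 10 regions were shorter and 10 longer, beside 74.9% shorter over all regions. Divided by the list total, 14 of 20 were longer, 7 of them at an unadjusted p under 0.05. Over all regions 49.3% were shorter, and 10.7% had such a p in either direction. The even split thus became mostly longer under scaling. Both ways, shorter regions made up less of the window than of all regions: 50% beside 74.9%, and 6 of 20 beside 49.3%. This difference in shares was not tested.

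The central bands D4 and D5 (4 libraries) were compared with the other 10 in the same way. By presence 0 of 7 regions were called (background 0 percent) and 0 had an unadjusted p under 0.05 (background 5.47 percent). By covered length 0 of 20 were called (background 0 percent), with the same need for 404 regions. 3 regions were longer at an unadjusted p under 0.05, against a background of 17.6 percent, so that the window's share was near that of the genome.

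These 3 were the neighbours at +7.59, +9.18 and +10.8 kb. At +10.8 kb, 2L:3616209-3616947, the covered length was 667 and 739 bp in D4 and 504 and 689 bp in D5. It was 227 and 524 bp in D1, 209 and 563 bp in D3, 240 and 222 bp in D2, 217 and 358 bp in D6, and 315 and 587 bp in D7. Whole embryos gave 216 to 328 bp. The central libraries were high, and the second libraries of D1, D3 and D7 reached into their range. The means were 650 ± 102 bp (SD, n = 4) and 346 ± 154 bp (SD, n = 10; exact permutation p = 0.004, adjusted p = 0.136). Of the 20 regions 3 were shorter in the central bands, beside 17.8% of all regions. Divided by the list total, 11 were shorter, beside 51.4% of all regions, and the difference at +9.18 kb changed sign, to -104 bp.

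For D1, D4, D5 and D7, the 8 tagged libraries were set against the 8 of whole embryos from those strains. By presence 0 of 6 regions were called (background 0 percent), and 0 had an unadjusted p under 0.05 (background 3.01 percent). By covered length 0 of 21 were called (background 0 percent), and 4 had an unadjusted p under 0.05, against a background of 9.28 percent. 67 regions would have had to reach the smallest possible p of 0.000155 before any could be called, and 13 did.

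The smallest p of the 21 was that of the region at -2.96 kb. It covered 1134 and 1151 bp in tagged D1, 1272 and 1266 bp in D4, 1134 and 1133 bp in D5, and 1326 and 1178 bp in D7. In whole embryos it covered 1011 and 1133 bp in the D1 strains, 1027 and 1047 bp in D4, 1019 and 1000 bp in D5, and 1114 and 990 bp in D7. The groups met at 1133 bp, and the tagged library was longer in 8 of 8 strains. The means were 1199 ± 77.0 bp and 1043 ± 53.0 bp (SD, n = 8 each; exact permutation p = 0.000311, adjusted p = 0.236). Like the other tests of this comparison given here, this permutation test did not pair libraries by strain. The other 3 were +10.8 kb (longer in tagged nuclei in 7 of 8 strains), +12.5 kb (longer in 6 of 8) and +6.17 kb (shorter in 5 of 8). Divided by the list total, 0 of 21 were called and 5 had an unadjusted p under 0.05, beside 8.14% of all regions. The smallest p was then at +10.8 kb (exact permutation p = 0.00342, adjusted p = 0.385). At -2.96 kb it rose (exact permutation p = 0.0109, adjusted p = 0.432).

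By strain, the window's length in tagged nuclei minus that in whole embryos was -688 and -748 bp in D1, 1530 and -206 bp in D4, 932 and 2840 bp in D5, and 1204 and 1152 bp in D7. Both D1 strains had less and both strains of D5 and of D7 had more. Each band was also set beside all 8 whole-embryo lists, counting regions in neither of its libraries but in all 8, or in both but in none of the 8. The window held 0 of either kind in all 7 bands. Over all regions the missing kind made up 0.361 percent in D1, 2 percent in D3, 0.899 percent in D2, 0.533 percent in D4, 0.513 percent in D5, 2.69 percent in D6 and 1.4 percent in D7. The gained kind made up 0.493, 0.424, 0.105, 0.883, 0.355, 0.0308 and 0.17 percent in the same order.

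There were 10 regions found in some but not all tagged libraries, and +7.59 kb is described above. All but +7.59 kb (1109 bp) and +6.17 kb (617 bp) were under 500 bp wide. The region at -11.5 kb, 2L:3594006-3594496, was missing from D6 replicate 1 alone, and that at +6.17 kb, 2L:3611660-3612276, from D3 replicate 2 alone. The region at -4.44 kb, 2L:3601151-3601559, was missing from D3 replicate 2, D6 replicate 1 and from 3 of 8 whole-embryo libraries. D3 replicate 2 and D6 replicate 1 were the libraries with the fewest regions of the window, 15 each.

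The region at +40.4 kb, 2L:3646053-3646342, was found in 5 of 14 tagged and 7 of 8 whole-embryo libraries. The tagged ones were D1 replicate 1, D2 replicate 1, both of D5 and D6 replicate 1. It was thus in both libraries of D5, in neither of D3, D4 and D7, and in 1 of 2 elsewhere. Its fold was 2.42 to 3.87. The region at +51.1 kb, 2L:3656627-3657074, was found in D4 replicate 1 and D5 replicate 2 and in no other tagged library, with 422 and 448 bp. In whole embryos it was found in 5 of 8, at 200 to 415 bp: both of the D1 strains, whose tagged libraries lacked it, both of D4, and 1 of D7. Neither whole-embryo library of D5 had it.

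The region at +62.0 kb, 2L:3667674-3667993, was found mostly in matched libraries of the same strains. It was present in both tagged and both whole-embryo libraries of the D1 strains and in both kinds from D7 line A. It was also present in tagged D4 replicate 1, but not in the whole-embryo library of that strain. It was found in no library of D2, D3, D5 or D6. The remaining 3 were rare. That at -5.03 kb, 2L:3600624-3600905, was found in D4 replicate 1 and D7 replicate 2, and that at +18.9 kb, 2L:3624552-3624831, in D1 replicate 1 and D3 replicate 2. That at +23.2 kb, 2L:3628923-3629158, was found in D7 replicate 2. A further region, at +12.0 kb (2L:3617715-3617914, 200 bp), was found in no tagged library and in 1 whole-embryo library of the D4 strains. None of these 4 regions was found in both libraries of a band.

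Regions elsewhere with the most similar presence over the 22 lists were looked up for the 7 members that vary most. For +7.59 kb, 6 regions matched in 21 of 22 lists, of which 3L:11063565-11064268 and 3R:5785687-5786189 had the highest median fold, 2.39 and 2.14. For +40.4 kb the best matched in 20 of 22, among them X:6980774-6981120. For +62.0 kb, 3R:21212607-21213439 and 3R:21439630-21439948 matched in 21. For the rare regions a full match of 22 is found in 18 others and says little.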

How the data were processed

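Peaks were called in each library separately against genomic DNA on dm3, per the labels' design text. The submitters' processing notes name Bowtie2 2.2.9, SAMtools 1.3.1 and MACS2 2.1.1.2, and the file headers name rtracklayer 1.40.3. The deposited score is 10 times the −log10 q of a peak, and each deposited peak also has a fold over the reference, a −log10 q and a summit. The depth in reads is unknown, so no counting interval could be given.

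Peaks were merged and tested with Python 3.11.15, numpy 2.4.6, scipy 1.17.1 and pandas 2.3.3. Covered length is the bp of a region under a library's peaks, 0 where none. It was tested in regions found in all libraries compared, or found in and missing from at least 2. All regions of the genome entered each two-sided test, were adjusted by Benjamini-Hochberg and were called at 0.05 or less. The code of the tests was checked on the real lists, with values shuffled over libraries and complete separation of the groups put into some regions. In each of the 4 comparisons 200 of 200 changed regions were recovered by presence and 500 of 500 by covered length. There were 0 to 2 and 13 to 27 false calls. With such large differences recovery was built in, so the check does not measure the power for smaller ones.

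The window, its regions and the tests were chosen with earlier results of these data known, and the flanks were added after seeing the gene order. Regions described singly were those varying among tagged libraries and, of those in all 22 lists, the 5 widest and the 5 of highest median fold. Tagged and whole-embryo libraries of a strain share that strain by their labels. Their deviations from the group means correlated at 0.00149 to 0.352 (mean 0.185 over 8 pairs, against -0.0263 between strains). For 7 of 8 libraries the highest correlation was with the own strain. Replicate numbers do not pair the bands (mean 0.0438 over 42 pairs).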

Additional observations from a re-analysis of the deposited data

Results flagged for a closer look

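In 55 checks for a library far from the rest of its group, 6 stood apart. A chance rate of about 1 in 20 holds for independent, normally spread values. The checks share libraries and include zeros and equal counts, so the number expected by chance is not known. The number of regions found was 16 in the first whole-embryo library of D5, below the other 7 (18 to 19). At -2.96 kb, D2 replicate 2 covered 1041 bp, below the other anterior libraries (1133 to 1163 bp). In the widest region, D5 replicate 1 covered 3435 bp, above the other 3 central libraries (3304 to 3322 bp). At +4.12 kb, D3 replicate 2 covered 1224 bp, below the other anterior libraries (2271 to 2479 bp). At +6.17 kb, D5 replicate 2 covered 516 bp, above the other central libraries (311 to 344 bp). At +7.59 kb, D1 replicate 2 covered 217 bp, where the other 5 anterior libraries had 0.

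In 13 of 66 comparisons between 2 constructs, both strains of one moved one way between tagged nuclei and whole embryo and both strains of the other moved the opposite way. These differences were not tested, and with 2 strains a side such a pattern can arise by chance. Given as the first construct's mean change minus the second's, the window's total length differed by -2604 bp for D1 against D5 and by -1896 bp for D1 against D7. In the widest region the differences were -271.5 bp (D1 against D5) and -219 bp (D1 against D7). At +4.12 kb they were -638.5 bp (D1 against D7) and -325 bp (D4 against D7), and at +6.17 kb -300 bp (D1 against D7) and -185 bp (D4 against D7). At +7.59 kb they were -547 bp against D4, -367.5 bp against D5 and -490 bp against D7, all for D1. At +9.18 kb the difference was -158.5 bp for D1 against D7, and at +50.2 kb -274.5 bp for D1 against D5. D1 was the first construct in 11 of these 13, and it moved down in each of those.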

How the results depend on the processing

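The number of regions of the window called by covered length in the anterior comparison (1) was the least steady count. It became 3 with the strongest 50% of each list, 2 with lists cut to equal length by −log10 q and 2 by peak width, and the widest region was among those called under each of these. It became 0 under scaling by the list total, 0 when permuting within naming styles (+9.18 kb, exact permutation test, adjusted p = 0.167), and 0 to 2 without a single library. It stayed at 1 with no filter on how many libraries hold a region. With a replicate block it was 0 (+9.18 kb, exact permutation test, adjusted p = 0.0561), and no region of the genome was called. The block has fewer splits, and the numbers do not pair the bands. The block changed no other call, that within strains for tagged against whole embryo included. Leaving out D6 replicate 1 gave the 2, by adding the widest region (exact permutation test, adjusted p = 0.0478). Every other omission gave 0, with 230 to 313 regions then needed at the smallest p in place of 135. The one reversal was +9.18 kb in the central comparison under scaling (-104 bp). The other tests called 0 regions of the window under every alternative run.

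Regions missing from or gained in a band (0) became 1 with the strongest 50%, 1 and 1 with equal-length lists, and 3 when peaks had to cover at least 50% of a region. Without a single library the count was 0 to 2: 2 without D3 replicate 1 or D7 replicate 1, and 1 without D1 replicate 2, D4 replicate 2, D6 replicate 2, or the whole-embryo libraries D1 replicate 2 or D5 replicate 1. Regions in all 22 lists (13) fell to 7 with the strongest 50% and to 8 with equal-length lists by −log10 q, and were 13 to 14 without a single library. The number of regions was 23 to 25.

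A peak list records what passed a threshold, so a missing region is not shown to be closed, and covered length moves with how much a list called.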
